A study of Mus musculus with 14 samples.

Results

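Adipogenic transcription factors are the DNA-binding proteins, and their partners, that turn a precursor into a fat cell and keep it one. They were followed here as 10 genes of the 23282 in the deposited count table, taken by symbol: Pparg, Rxra, Cebpa, Cebpb, Cebpd, Klf15, Ebf1, Ebf2, Ppargc1a and Ppara. All 10 had counts, and all 10 passed the filter on low counts in every comparison below. The table holds 14 libraries of epididymal white adipose tissue (eWAT), the fat pad beside the epididymis of male mice, each from a different wild type C57BL/6J animal. The mice received either a normal control diet or a Western diet (WD), rich in saturated fat, sugar and cholesterol, for 20 weeks. The authors give an age of 4 weeks for the mice assigned to the diets, and elsewhere 5 weeks for the start of the WD. Batch 1 held 4 control and 5 WD libraries and batch 2 held 5 control libraries, so every WD library belonged to batch 1, and diet and batch cannot be told apart when WD libraries are set against batch 2 controls. RNA was read by QuantSeq, a method that starts cDNA at the poly(A) tail, so that reads fall close to where a transcript ends.

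PPARG, a nuclear receptor that binds DNA with RXRA, is the central regulator of fat cell differentiation, and CEBPB and CEBPD act early to switch on Pparg and Cebpa, which then maintain each other. KLF15 adds to this step and is known as a glucocorticoid-responsive regulator of amino acid, lipid and glucose metabolism, while EBF1 and EBF2 bind many fat cell enhancers and EBF2 is also known for brown and beige fat. PPARA, the receptor of fatty acid oxidation genes, and PPARGC1A, the coactivator of mitochondrial genes, are best known from tissues that burn fat, brown fat among them. Whole tissue was sequenced, so fewer fat cells and less RNA per fat cell cannot be told apart.

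The stretch before the start of a gene shows where some of these factors could bind one another's genes. In RefSeq (GRCm38.p6), 12 start sites were listed for 8 of the 10 genes, and the 250 bases before each were searched on both strands for 5 short motifs. The motifs were the C/EBP sequence TTGCNNAA, found before 9.56% of 32851 start sites in the table, the EBF sequence CCCNNGGG (11.8%), the PPAR and RXR hexamer AGGTCA (14.02%), the E-box CACGTG (6.02%) and the KLF sequence CACCC (52.0%). The C/EBP sequence stood before 1 of the 12 start sites, that of the Pparg transcript Pparg-201, the most downstream of 3, at bases 215 to 208 and 16 to 9 upstream of the start. The E-box also stood before 1 of them, the start of Klf15, at bases 228 to 223 and 172 to 167. Unlike the other motifs, the E-box is not the sequence of any of the 10 factors. Both stretches are given because Pparg is the hub of the group and Klf15 is the factor with the lowest p against the batch 2 controls, with capitals marking the motifs. The Pparg stretch lies at chr6:115421816-115422065 and the Klf15 stretch at chr6:90462326-90462575, both on the plus strand.

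Pparg, 250 bases before the start of Pparg-201: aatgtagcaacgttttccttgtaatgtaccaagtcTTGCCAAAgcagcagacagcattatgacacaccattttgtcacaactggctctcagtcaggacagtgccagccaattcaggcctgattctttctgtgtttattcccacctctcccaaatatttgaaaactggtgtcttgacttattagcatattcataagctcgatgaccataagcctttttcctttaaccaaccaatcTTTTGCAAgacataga
Klf15, 250 bases before its start: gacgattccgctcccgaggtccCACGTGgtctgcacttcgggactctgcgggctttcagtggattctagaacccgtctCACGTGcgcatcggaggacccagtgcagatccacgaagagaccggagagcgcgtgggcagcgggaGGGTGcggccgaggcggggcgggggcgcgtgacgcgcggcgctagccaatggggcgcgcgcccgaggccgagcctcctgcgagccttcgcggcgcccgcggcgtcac

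The Klf15 stretch also held a KLF sequence, at bases 107 to 103, and no C/EBP sequence. Among the others, the EBF sequence stood before Cebpb and Ppara, the hexamer AGGTCA before the 2 upstream starts of Pparg and 1 of the 2 starts of Rxra and the KLF sequence before 10 of the 12 start sites. A match in letters is a description and not a measured binding site. Counting near the 3′ end also cannot tell the Pparg transcripts apart, because those from all 3 starts share their 3′ end, so each value below is a sum over transcripts.

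Library size ranged from 10278970 to 13712254 counts, and 3 counts, the smallest level taken as shown, corresponded to 0.219 to 0.292 CPM, counts scaled to a common library size. Batch 1 control replicate 1 stood apart: 25 epididymis genes took 15.9% of its counts against at most 0.00649% in the other 13 libraries, and 10 fat cell markers took 0.394% against 2.02% to 5.25%. Batch 1 control replicate 4 had counts for 7999 genes, whereas the other libraries had 10903 to 13780. All 10 fat cell markers were detected in all 14 libraries. For each factor, the batch 1 difference is therefore also given without batch 1 control replicate 1 and without replicate 4. In the batch 1 controls, WD and batch 2 controls, 10 macrophage markers took 0.0150% to 0.170%, 0.148% to 0.218% and 0.0343% to 0.0741% of counts, and their part in the results below was not tested.

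**Figure D1:**
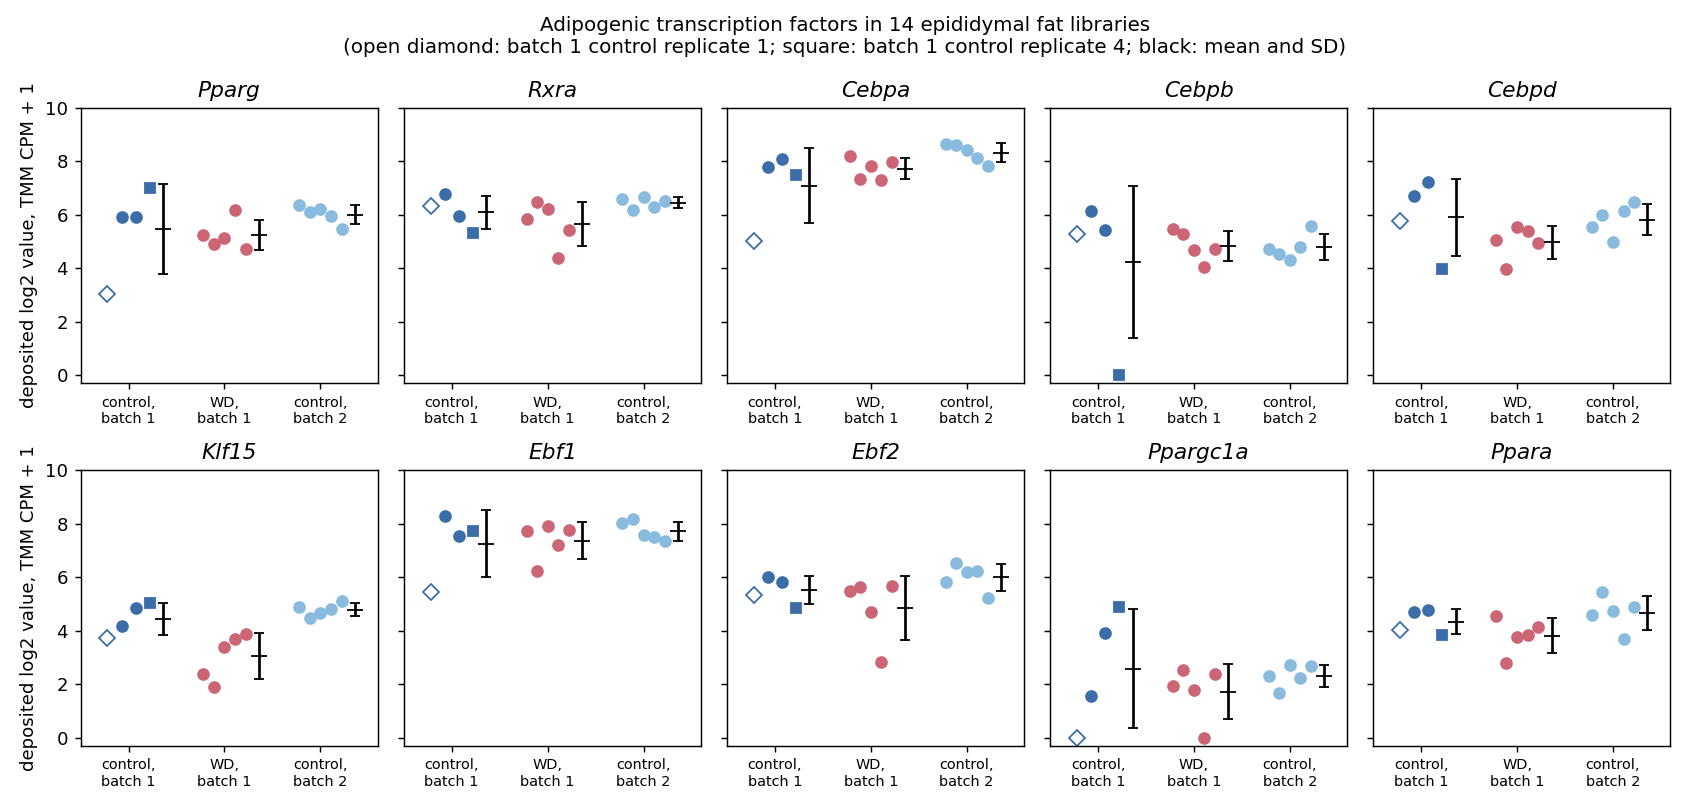
Deposited log2 values (vertical axis; TMM-normalised CPM with 1 added) of each of the 10 factors in the 4 control and 5 WD libraries of batch 1 and the 5 control libraries of batch 2; points are libraries and black marks the mean and SD. Klf15 sat at 1.90 to 3.86 in the WD libraries and 4.49 to 5.09 in the batch 2 controls. The open diamond, batch 1 control replicate 1, was the lowest of all 14 libraries for 4 of the 10 factors, for Ppargc1a in a tie at 0 with WD replicate 4.

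Klf15 (chr6:90462626-90475209) was the factor with the lowest p against the batch 2 controls. It had 116, 203, 334 and 421 counts in the 4 batch 1 controls, 60, 26, 130, 147 and 162 in the 5 WD libraries, and 399, 222, 317, 353 and 329 in the 5 batch 2 controls. All 5 WD libraries lay below all 5 batch 2 controls, a separation in that direction that 3.99% of all genes tested also showed. Among the batch 1 controls, only replicate 1, the library with the epididymis RNA, fell within the WD range on the log2 scale (3.71, against a highest WD value of 3.86). The mean log2 value was 3.04 ± 0.86 (SD, n = 5) in WD, 4.78 ± 0.23 (SD, n = 5) in the batch 2 controls and 4.44 ± 0.61 (SD, n = 4) in the batch 1 controls. Klf15 fell by 1.68 against the batch 2 controls on the log2 scale (SE 0.44, edgeR quasi-likelihood test, FDR, the Benjamini-Hochberg adjusted p, of 0.0281). The FDR stayed under 0.05 in 4 of the 10 fits that left out 1 library. It was 0.0576 to 0.0774 in the other 6, which left out WD replicate 1 or 3 or batch 2 control replicate 1, 3, 4 or 5, and over all 10 fits the difference was between -1.92 and -1.46. Within batch 1, Klf15 was lower in WD by a similar size that did not pass the test (log2 difference -1.40, SE 0.75, edgeR unadjusted p = 0.0853, FDR 1.00). Without control replicate 1 the batch 1 difference was -1.59 (SE 0.78, edgeR unadjusted p = 0.0659, FDR 0.827), and without control replicate 4 it was -1.21.

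Pparg (chr6:115360951-115490401) varied most in the batch 1 controls. Its counts were 69, 705, 709 and 1683 there, 524, 274, 471, 897 and 301 in WD, and 1122, 696, 955, 784 and 426 in the batch 2 controls. Control replicate 1 was far below every other library and replicate 4 above every other, so that 1 group spanned the whole range. WD replicate 4 lay above the other WD libraries and inside the range of the batch 2 controls. The log2 difference from the batch 2 controls was -0.70 (SE 0.29, edgeR unadjusted p = 0.0284, FDR 0.204), which did not pass the adjusted test. Without WD replicate 4 it was -1.04 (SE 0.25, edgeR FDR 0.0214), while over all 18 alternative fits of this comparison the FDR of Pparg ran from 0.0214 to 0.398. In batch 1 the difference was -0.65 (SE 0.60), and it was -1.02 (SE 0.42, edgeR unadjusted p = 0.0331, FDR 0.725) without control replicate 1 and -0.10 without control replicate 4.

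Rxra (chr2:27677201-27763319), the DNA-binding partner of the PPARs, had 762, 1275, 727 and 523 counts in the batch 1 controls, 786, 845, 990, 248 and 505 in WD, and 1344, 742, 1338, 1002 and 894 in the batch 2 controls. WD replicate 4 was the lowest library, WD replicates 2 and 3 lay within the range of the batch 2 controls on the log2 scale, and the other 3 WD libraries lay below it. The log2 difference was -0.36 (SE 0.45) in batch 1 and -0.64 (SE 0.31, edgeR unadjusted p = 0.0564, FDR 0.301) against the batch 2 controls. In batch 1 it was -0.28 without control replicate 1 and -0.59 without control replicate 4. Unlike Pparg, Rxra was not low in batch 1 control replicate 1, where its log2 value of 6.33 was within the range of the batch 2 controls.

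Ppara (chr15:85735564-85806851) had 148, 295, 314 and 177 counts in the batch 1 controls, 316, 56, 171, 165 and 196 in WD, and 326, 436, 335, 153 and 285 in the batch 2 controls. WD replicate 2 was the lowest of all 14 libraries. On the log2 scale, WD replicates 1, 3, 4 and 5 (3.75 to 4.54) lay within the range of the batch 2 controls (3.67 to 5.43). WD replicates 1 and 5 also lay within that of the batch 1 controls (3.83 to 4.76). The log2 difference was -0.50 (SE 0.65) in batch 1 and -0.89 (SE 0.41, edgeR unadjusted p = 0.0438, FDR 0.263) against the batch 2 controls. In batch 1 it was -0.59 without control replicate 1 and -0.68 without control replicate 4.

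Ppargc1a (chr5:51454249-51553921), the coactivator that works with the PPARs, was close to the floor in many libraries. Its counts were 0, 23, 168 and 381 in the batch 1 controls, 40, 46, 33, 0 and 50 in WD, and 55, 23, 73, 49 and 53 in the batch 2 controls. The values above 100 counts came from batch 1 control replicates 3 and 4, and every other library lay at 73 counts or below. The 0 of 12029801 counts in batch 1 control replicate 1 allows up to 0.249 CPM, and the 0 of 12781448 in WD replicate 4 up to 0.235 CPM. The log2 difference of -1.92 in batch 1 carried an SE of 1.65. It was -2.33 without control replicate 1 and -0.90 without control replicate 4. The difference against the batch 2 controls was -0.54 (SE 1.07), so no difference in Ppargc1a was detectable at this depth and spread.

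Cebpa (chr7:35119293-35121928), which holds fat cells in the differentiated state, had differences of unlike sign from the 2 control groups. It had 303, 2586, 3240 and 2354 counts in the batch 1 controls, 4084, 1541, 3062, 1930 and 2989 in WD, and 5539, 4057, 4477, 3609 and 2242 in the batch 2 controls. Control replicate 1 was the low library, and the other 3 batch 1 controls lay inside the WD range. The log2 difference in batch 1 was 0.33 (SE 0.47), -0.02 (SE 0.28) once control replicate 1 was left out, and 0.30 (SE 0.52) without control replicate 4. From the batch 2 controls it was -0.59 (SE 0.22, edgeR unadjusted p = 0.0166, FDR 0.147). The batch 2 controls themselves were above the batch 1 controls by 0.90 (SE 0.47, edgeR unadjusted p = 0.0790, FDR 0.737).

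Cebpd (chr16:15887286-15889545), an early C/EBP that responds to hormones and inflammation, was the factor with the lowest p in batch 1. It had 506, 1214, 1779 and 194 counts in the batch 1 controls, 451, 139, 632, 507 and 354 in WD, and 643, 643, 400, 897 and 865 in the batch 2 controls. On the log2 scale, control replicates 1, 2 and 3 (5.75, 6.69 and 7.22) were above all WD libraries (3.96 to 5.56), although the counts of replicate 1 were within the WD range. Control replicate 4 (3.955) was just below the lowest WD library on that scale and had fewer counts than 4 of the 5. The log2 difference in batch 1 was -1.29 (SE 0.56, edgeR unadjusted p = 0.0394, FDR 0.917), and -1.43 (SE 0.59, edgeR unadjusted p = 0.0328, FDR 0.725) without control replicate 1. It was -1.66 (SE 0.42, edgeR unadjusted p = 0.00178, FDR 0.126) without control replicate 4, and -1.93 (SE 0.39, edgeR FDR 0.0363) without control replicates 1 and 4, the lowest FDR among the 18 alternative fits of batch 1, which reached 1.00. From the batch 2 controls it was -0.85 (SE 0.33, edgeR unadjusted p = 0.0200, FDR 0.165). The 3′ end of Cebpd overlaps Spidr on the other strand in GENCODE, and the sources do not say whether strand was used in counting, so reads of the pair cannot be told apart.

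Cebpb (chr2:167688915-167690432), the other early C/EBP, had counts of 366, 834, 502 and 0 in the batch 1 controls, 613, 361, 340, 196 and 303 in WD, and 355, 230, 247, 345 and 469 in the batch 2 controls. The 0 of 12334105 counts belonged to batch 1 control replicate 4 and allows up to 0.243 CPM, and the rest overlapped between groups. The log2 difference was -0.36 (SE 1.02) in batch 1, -0.79 (SE 0.41, edgeR unadjusted p = 0.0804, FDR 0.573) without that library, and 0.08 (SE 0.34) against the batch 2 controls. Without control replicate 1 the batch 1 difference was -0.33 (SE 1.12).

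Ebf1 (chr11:44618100-45008096) and Ebf2 (chr14:67233292-67430952) are related DNA-binding proteins. Ebf1 had 404, 3672, 2212 and 2824 counts in the batch 1 controls, 2943, 698, 3318, 1843 and 2584 in WD, and 3595, 2989, 2486, 2364 and 1596 in the batch 2 controls. Its low libraries were batch 1 control replicate 1 and WD replicate 2, the 2 with the smallest share of fat cell markers. The log2 difference of Ebf1 was -0.06 (SE 0.48) in batch 1 and -0.27 (SE 0.28) against the batch 2 controls. In batch 1 it was -0.38 without control replicate 1 and -0.02 without control replicate 4. Ebf2 had 375, 756, 669 and 371 counts in the batch 1 controls, 617, 460, 341, 76 and 589 in WD, and 779, 949, 953, 963 and 360 in the batch 2 controls. WD replicate 4 was its lowest library, and 4 of the 5 batch 2 controls lay above all WD libraries. As with Cebpd and Spidr, the 3′ end of Ebf2 overlaps Gm10860 on the other strand in GENCODE, so reads of this pair cannot be told apart. The log2 difference of Ebf2 was -0.43 (SE 0.55) in batch 1 and -0.93 (SE 0.42, edgeR unadjusted p = 0.0422, FDR 0.258) against the batch 2 controls. In batch 1 it was -0.49 without control replicate 1 and -0.64 without control replicate 4.

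**Figure D2:**
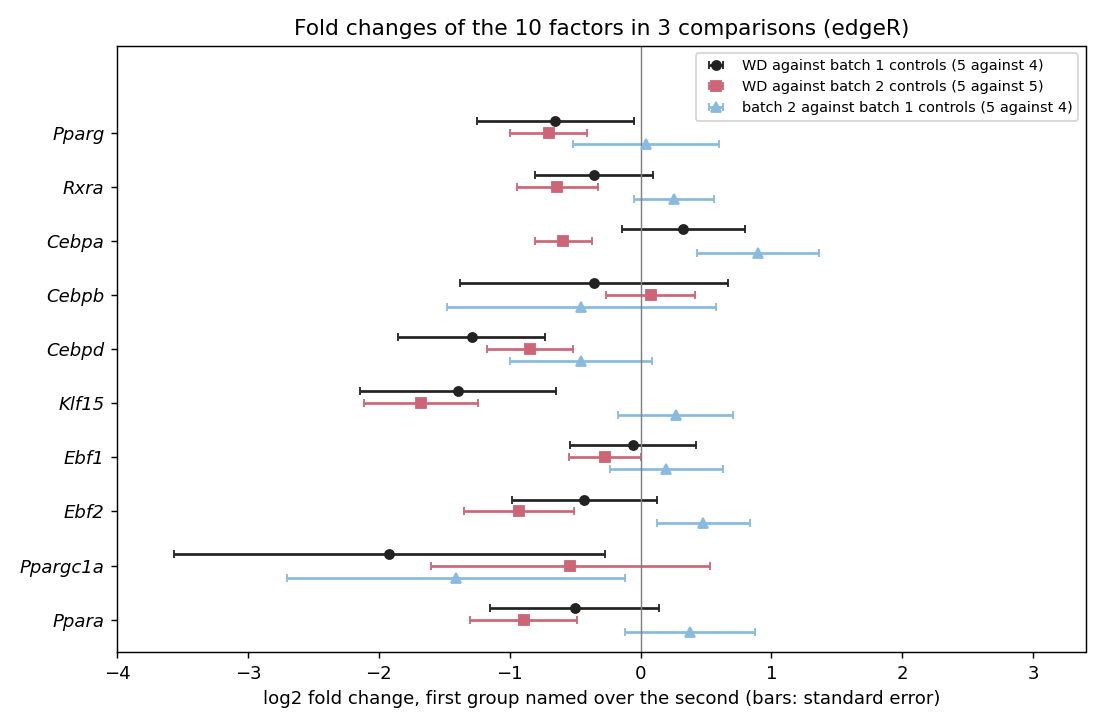
Log2 fold changes (horizontal axis) with standard errors of the 10 factors from edgeR, for WD against batch 1 controls, WD against batch 2 controls, and batch 2 against batch 1 controls. Klf15 was at -1.40 and -1.68 in the 2 diet comparisons and at 0.27 between the control groups, whereas Cebpa was at 0.33, -0.59 and 0.90.

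Within batch 1, the comparison in which diets share a batch, no factor passed an FDR of 0.05, and neither did any other gene (0.00% of 12157 tested, edgeR). At an unadjusted p under 0.05, 1 of the 10 factors, Cebpd, was lower in WD, where 1.82% of all genes were lower and 5.17% differed in either direction. DESeq2, limma-voom and limma-trend called 0 of the 10 factors at an FDR of 0.05 as well. The log2 difference was below 0 for 9 of the 10 factors, with a median of -0.47, whereas 48.2% of all genes were below 0 and their median was 0.03.

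With the batch 2 controls as the reference, 1 of the 10 factors, Klf15, passed an FDR of 0.05, where 6.40% of 12070 genes did and 2.48% were called lower (edgeR). In all, 6 factors had an unadjusted p under 0.05, and all 6 were lower in WD, where 7.90% of all genes were lower at that p and 17.7% differed: Pparg, Cebpa, Cebpd, Klf15, Ebf2 and Ppara. The median difference of the 10 factors was -0.67, against a median of all genes of 0.00. This comparison shares the WD libraries with the batch 1 comparison, so that the 9 factors below 0 in each are not separate observations.

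With all 9 controls, 0 of the 10 factors passed an FDR of 0.05, where 0.530% of 12653 genes did (edgeR). Klf15 (log2 difference -1.56, SE 0.48, edgeR unadjusted p = 0.00391, FDR 0.221) and Cebpd (-1.06, SE 0.44, edgeR unadjusted p = 0.0253, FDR 0.504) had an unadjusted p under 0.05, where 3.25% of all genes were lower at that p. DESeq2 called 1 factor, Klf15 (FDR 0.0182), and limma-voom and limma-trend called 0. Without batch 1 control replicates 1 and 4, edgeR called both Klf15 (-1.61, FDR 0.0263) and Cebpd (-1.25, FDR 0.0472). The fits above had no batch term, although batch 2 held controls only, so diet and batch are partly mixed in them. With batch as a term, neither passed: Klf15 was at -1.41 (SE 0.54, edgeR FDR 0.395) and Cebpd at -1.29 (SE 0.50, edgeR FDR 0.400). Over the 23 alternative fits the FDR ran from 0.0182 to 1.00 for Klf15 and from 0.0472 to 1.00 for Cebpd.

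Between the 2 control groups, which had the same diet, no factor passed an FDR of 0.05 and none had an unadjusted p under 0.05, where 0.00% and 7.39% of 12106 genes did (edgeR), and DESeq2, limma-voom and limma-trend also called 0 of the 10. The widest standard errors were those of Ppargc1a (1.29), Cebpb (1.03), Pparg (0.56) and Cebpd (0.54), each of which had an extreme library among the batch 1 controls.

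The correlation of the factors with the fat cell marker RNA of a library depended on batch 1 control replicate 1. These markers are also in the list of PPARG and CEBPA targets described below, so their sum is not a measure of cell number alone. Over the 14 libraries, the correlation of the log2 value with the log2 CPM sum of the 10 fat cell markers was 0.95 for Cebpa, 0.89 for Ebf1 and 0.81 for Pparg, 0.46 for Ppargc1a, 0.37 for Klf15, 0.36 for Ppara, 0.20 for Ebf2, 0.16 for Cebpd, 0.01 for Rxra and -0.10 for Cebpb. These values share library composition and depth and are descriptions. Without that library they were 0.77 for Cebpa, 0.77 for Ebf1, 0.74 for Klf15, 0.73 for Ppara, 0.59 for Cebpd, 0.45 for Ebf2, 0.42 for Pparg, 0.34 for Rxra, 0.07 for Cebpb and 0.0035 for Ppargc1a. The order of the factors therefore changed with 1 library. With the macrophage markers, the correlation over the 14 libraries was -0.55 for Rxra, -0.52 for Cebpd, -0.52 for Ppara, -0.48 for Klf15, -0.47 for Ebf2 and 0.28 for Cebpa. It was -0.59, -0.59, -0.71, -0.68, -0.60 and -0.63 in the same order without batch 1 control replicate 1, so that the sign for Cebpa turned with that library. The sign also turned for Pparg (0.31 to -0.27), Ebf1 (0.30 to -0.27) and Ppargc1a (0.19 to -0.14), while Cebpb was at -0.30 and -0.28.

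**Figure D3:**
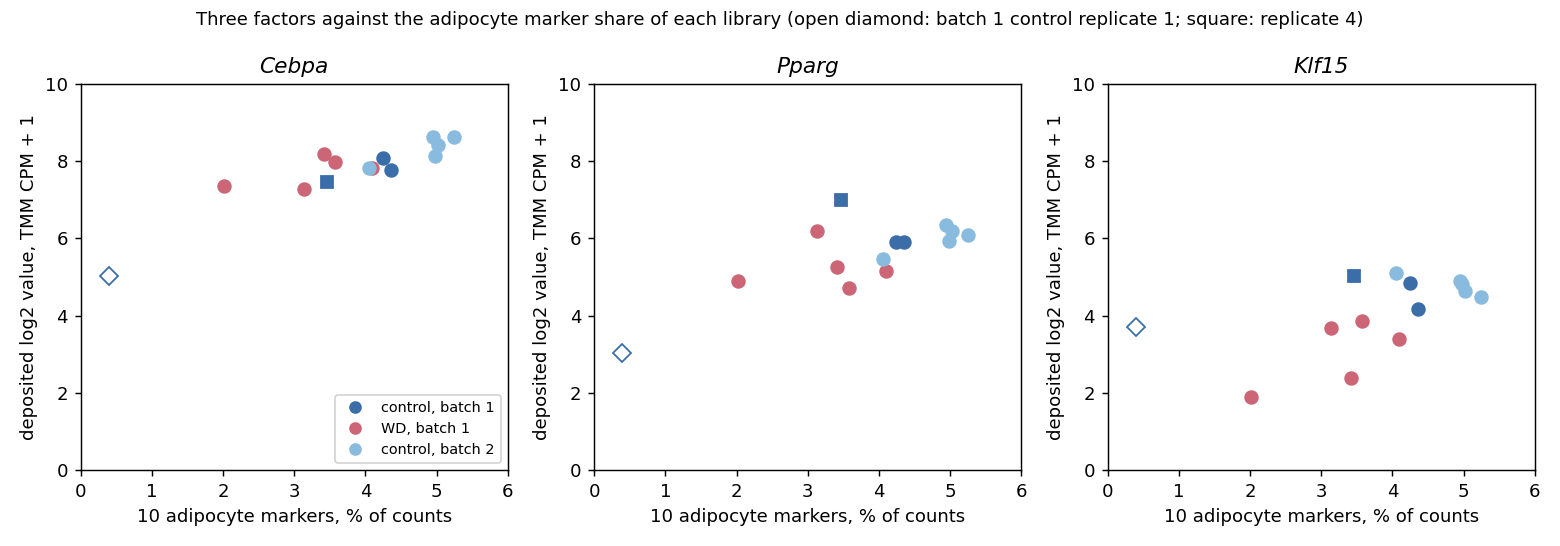
Deposited log2 values of Cebpa, Pparg and Klf15 (vertical axes) against the percentage of counts taken by 10 fat cell markers (horizontal axes); each point is a library, coloured by group. Batch 1 control replicate 1, the open diamond at 0.394%, was the lowest library for Cebpa (5.03) and Pparg (3.04), whereas for Klf15 it was at 3.71 and the WD libraries reached down to 1.90.

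Each factor, in CPM with 1 added, was also expressed as a log2 ratio to the fat cell marker sum in CPM. This form was chosen after the data were seen, and every factor of a library is divided by the same number. The 1 added raises the ratio most where a factor is low. In this form Cebpa was close to equal in WD and batch 2 controls (log2 difference 0.008, two-sided exact permutation p = 0.952). The ratio of Klf15 was -12.59, -12.56, -11.82, -11.29 and -11.21 in WD and -10.68, -11.18, -10.95, -10.75 and -10.30 in the batch 2 controls on the log2 scale. All WD libraries again lay below all batch 2 controls, although WD replicate 5 and batch 2 control replicate 2 almost touched. The difference was -1.12 (two-sided exact permutation p = 0.00794, the smallest that 5 against 5 allows, unadjusted for the 10 factors compared). In batch 1 the difference in the Klf15 ratio was -1.87 (two-sided exact permutation p = 0.0317), and -1.37 without control replicate 1 (two-sided exact permutation p = 0.0714). For Pparg, Cebpd and Ppara, the ratio differed from the batch 2 controls by -0.16, -0.23 and -0.24 (two-sided exact permutation p = 0.619 for Pparg and 0.508 for Ppara), and for Cebpb by 0.67 (two-sided exact permutation p = 0.143).

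Related genes were described by 7 lists, chosen with earlier results of these data known. They held targets of the factors, relatives and partners of the receptors, coregulators, and other regulators that promote or oppose fat cell formation. All values of the lists that use the batch 1 controls include control replicate 1. Fat cell markers took 0.394% of the counts of that library against 2.02% to 5.25% in the others, and its part in the list values was not tested. In batch 1, none of their genes passed an FDR of 0.05 (edgeR), and at an unadjusted p under 0.05 the fat cell targets of PPARG and CEBPA gave 4 higher and 1 lower of 34 and the other pro-adipogenic factors 0 higher and 2 lower of 27, where 5.17% of all genes differed. Nr2f2, which encodes the nuclear receptor COUP-TFII, stood at 255 ± 112 CPM (SD, n = 4) under the control diet and at 100.3 ± 20.1 CPM (SD, n = 5) under the WD (log2 difference -1.35, edgeR unadjusted p = 0.00154, FDR 0.434). Asxl2, a PPARG coactivator, had a log2 difference of -1.29 (edgeR unadjusted p = 0.00654, FDR 0.546). Lep, the fat cell hormone leptin, stood at 1602 ± 862 CPM (SD, n = 4) under the control diet and at 4169 ± 565 CPM (SD, n = 5) under the WD (log2 difference 1.38, edgeR unadjusted p = 0.0112, FDR 0.593).

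The fat cell targets of PPARG and CEBPA were the list with the most calls against the batch 2 controls. Of 34 tested, 15 were lower and 2 higher at an FDR of 0.05 (edgeR), where 2.48% of all genes were lower and 6.40% were called in either direction. The median of the list was -0.64, whereas in batch 1 it was 0.30 and between the batch 2 and batch 1 controls it was 0.88. Between the controls, 10 genes were higher and 3 lower in batch 2 at an unadjusted p under 0.05 (edgeR), where 7.39% of all genes differed. The medians of 0.30 and 0.88 include batch 1 control replicate 1, the library low in fat cell markers, and were not computed without it. Diet and batch cannot be told apart in the comparison with the batch 2 controls. Cfd, the adipokine adipsin, fell by 3.07 on the log2 scale (SE 0.28, edgeR FDR 9.78e-06), Car3, a carbonic anhydrase abundant in fat, fell by 2.25 (edgeR FDR 3.57e-06), Retn, which encodes resistin, by 1.82 and Plin4, a lipid droplet protein, by 1.76. In batch 1 the log2 differences of Cfd, Car3, Retn and Plin4 were -1.40, -0.83, -0.89 and -0.13, and of these Cfd had an unadjusted p under 0.05 (edgeR unadjusted p = 0.0454, FDR 0.950). Lep rose by 1.29 against the batch 2 controls (SE 0.27, edgeR FDR 0.00611), against the direction of most of its list. The 10 fat cell markers are all members of this list, and the 7 of them that were lower and the 1 that was higher are counted above. In the same libraries 8 of the 10 macrophage markers were higher at an FDR of 0.05 (edgeR), and their part in these differences was not tested.

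Other regulators that promote fat cell formation gave 3 lower and 0 higher of 27 tested against the batch 2 controls (edgeR, FDR of 0.05), where 2.48% of all genes were lower. Nfia, which works with PPARG and EBF2 in brown fat, fell by 1.20 (SE 0.19, edgeR FDR 0.000812), Zbtb16, which encodes the glucocorticoid-inducible factor PLZF, by 0.97 (edgeR FDR 0.0189) and Nr3c1, the glucocorticoid receptor, by 0.77 (edgeR FDR 0.0335). The regulators that oppose fat cell formation gave 1 lower of 21, Foxo1, which fell by 0.70 (edgeR FDR 0.0338). Neither the relatives and partners of the receptors (16 tested) nor the coregulators of PPARG and RXR (20 tested) held a gene that passed an FDR of 0.05 (edgeR), and at an unadjusted p under 0.05 they gave 2 and 4 genes, where 17.7% of all genes had such a p. In batch 1 the log2 differences of Nfia, Zbtb16, Nr3c1 and Foxo1 were -0.80, -0.96, -0.40 and 0.28, none with an FDR under 0.05 (edgeR).

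The targets of PPARA gave 2 higher and 0 lower of 16 tested against the batch 2 controls (edgeR, FDR of 0.05), where 6.40% of all genes were called. At an unadjusted p under 0.05 they gave 3 higher and 5 lower (edgeR), where 17.7% of all genes differed. The 2 genes that passed were Pdk4, the kinase that restrains glucose oxidation, which rose by 1.82 (SE 0.49, edgeR FDR 0.0329), and Cpt1a, the gate of fatty acid entry into mitochondria, which rose by 0.80 (SE 0.23, edgeR FDR 0.0472). In batch 1 the log2 difference of Pdk4 was 0.000113 (SE 0.69, edgeR unadjusted p = 1.00) and that of Cpt1a -0.19 (SE 0.37, edgeR unadjusted p = 0.619). Between the control groups, batch 2 against batch 1, Pdk4 differed by -1.84 on the log2 scale (edgeR unadjusted p = 0.0335, FDR 0.621) and Cpt1a was also lower in batch 2 (edgeR unadjusted p = 0.0228, FDR 0.583). The targets and partners of PPARGC1A gave 2 lower and 0 higher of 17 against the batch 2 controls (edgeR, FDR of 0.05), where 2.48% of all genes were lower. Uqcrc2, a subunit of respiratory complex III, fell by 0.86 (edgeR FDR 0.00561) and Ndufs1, of complex I, by 0.67 (edgeR FDR 0.0406), and 15 of the 17 were below 0. In batch 1, where 4 of the 17 were below 0, the log2 difference was -0.57 for Uqcrc2 and 0.25 for Ndufs1, neither with an FDR under 0.05 (edgeR).

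**Figure D4:**
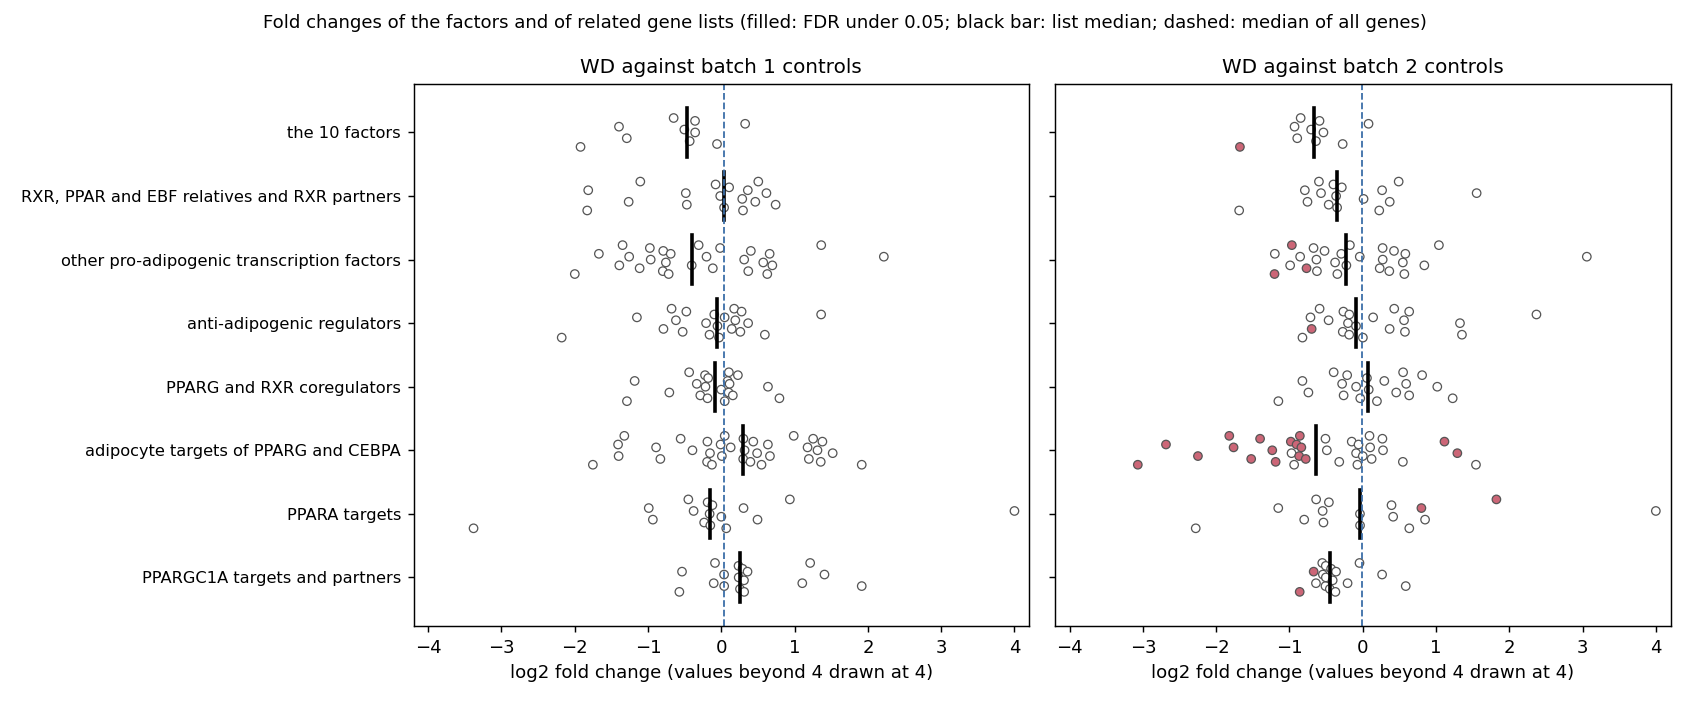
Log2 fold changes (horizontal axis) of the 10 factors and of 7 gene lists for WD against batch 1 controls (left) and against batch 2 controls (right); each point is a gene, filled where the edgeR FDR is under 0.05, black bars are list medians and the dashed line is the median of all genes. The factors had medians of -0.47 and -0.67, the fat cell targets of PPARG and CEBPA had 0.30 and -0.64, and the point drawn at 4 is Cpt1b, which had no counts in the batch 1 controls.

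Genes whose log2 values ran most like those of a factor over the 14 libraries, among 5847 genes with a mean log2 CPM of at least 4, differed from factor to factor. For Cebpa they were 2610016A17Rik (Pearson r 0.96), Smoc1 (0.96) and Plin1 (0.95), the last a lipid droplet protein of fat cells. These fell to 0.81, 0.81 and 0.85 without batch 1 control replicate 1. For Ebf1 they were Pex5 (0.95), G3bp1 (0.95) and Fgfrl1 (0.93), which fell to 0.89, 0.89 and 0.82 without that library. For Pparg they were Hsd17b4 (0.91), Ghr (0.90) and Ube2g2 (0.89), and these fell to 0.67, 0.72 and 0.56 without batch 1 control replicates 1 and 4. For Klf15 they were Fdx1 (0.87), C2cd2l (0.87) and Uqcrc2 (0.86), which stood at 0.91, 0.90 and 0.88 without those libraries and at 0.59, 0.69 and 0.53 as deviations from the group means. Uqcrc2 was also the third for Ppara (0.81), after Ecsit (0.83) and Cdk13 (0.82). For Cebpb they were Ino80 (0.97), Yars (0.97) and Aup1 (0.96), each of which was 0.73 to 0.84 without the library in which Cebpb had no counts and control replicate 1. Among the 45 pairs of the 10 factors, the median r was 0.26, from -0.50 to 0.84, with 9 pairs above 0.5 and 9 below 0. Without batch 1 control replicates 1 and 4 the median was 0.35, from -0.28 to 0.76, with 13 pairs above 0.5 and 5 below 0.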

How the data were processed

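QuantSeq 3′ mRNA-seq libraries of eWAT from 9 control and 5 WD mice were analysed. The authors mapped single-end reads with Bowtie2, then counted them per gene with bedtools, alignments to several places included, and these counts were deposited without normalization. The authors also deposited log2 values after TMM and CPM scaling in edgeR with 1 added, which log2 values recomputed from the counts matched with a median difference of 0.0046. The labels name the mm10 build, and 99.6% of 22170 symbols overlapped their GENCODE M21 positions. Multiple alignments and unstated strand use can place reads of overlapping or near-identical genes in more than 1 gene.

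All genes that passed edgeR's filter on low counts were fitted with edgeR 4.0.16 (TMM, quasi-likelihood test, no covariates, FDR threshold of 0.05) in R 4.3.3, once for each pair of groups and once for all 14 libraries, and the results of the 10 factors were taken from these fits. Alternatives used limma 3.58.1, DESeq2 1.42.0, other scaling factors and filters, a replicate block, a batch term and the removal of libraries. Ratios, exact permutation tests and plots used Python 3.11.15, numpy 2.4.6, pandas 2.3.3, scipy 1.17.1 and matplotlib 3.10.9. The fits were tested on simulated data. The factors and gene lists were chosen with earlier results of these data known. The genes named are all 10 factors, up to 4 genes with the lowest p in each list, and for 6 factors the 3 genes with the highest Pearson r. P-values set a difference against the spread between libraries, each from a different animal, and without a batch term they do not cover a difference between batches. Limits from counts cover counting error only. The replicate numbers of the library names, or for all controls those of the titles, did not pair the samples: the correlation of same-numbered deviations was -0.04 to 0.10. Mitochondrial genes were not analysed here.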

Additional observations from a re-analysis of the deposited data

Results flagged for a closer look

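In the 30 sets formed by the 10 factors and the 3 groups, 1 held a library flagged by Dixon's test, where chance alone would give about 1.5. That test compares the gap to the nearest library with the range of the set, and in sets this small it can pass over wide gaps. Batch 1 control replicate 1 was not flagged for Pparg (log2 value 3.04, others from 5.91), Cebpa (5.03, others from 7.47) or Ebf1 (5.43, others from 7.53). Cebpb had 0 counts and a deposited log2 value of 0 in batch 1 control replicate 4, and 366 to 834 counts (log2 values of 5.29 to 6.16) in the other 3 batch 1 controls. The same library had counts for fewer genes than any other (7999) and the highest Pparg and Ppargc1a values of all 14. Whether these share a source was not tested.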

How the results depend on the processing

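In batch 1, where edgeR called 0 genes, DESeq2 called 114 and edgeR called 108 without control replicates 1 and 4, of which 1 was a factor (Cebpd, -1.93). Leaving out single libraries gave 0 to 48 genes there, and the 48 came without control replicate 4. Against the batch 2 controls, the count of factors was 0 to 2 when single libraries were left out and 2 without WD replicates 2 and 4, a choice made after the data were seen (Pparg was then called, edgeR FDR 0.0247). With all controls, where edgeR called 67 genes, DESeq2 called 225, limma-voom 223, limma-trend 210, a batch term 1, the title number as a replicate block 0, and leaving out control replicates 1 and 4 of batch 1 gave 619. Of these, DESeq2 called 1 factor and the fit without those controls 2. Single libraries left out moved the 67 to between 28 and 289, with the highest counts without batch 1 control replicates 4 (289) and 1 (190) and lower ones without WD replicate 1 (29), 2 (42), 3 (28) or 4 (33) or batch 2 control replicate 1 (40). Between the control groups, DESeq2 called 111 genes, 28 were called without control replicates 1 and 4, and 0 to 2 with single libraries left out. No scaling moved the median of all genes by more than 0.1.

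Differences that changed sign were all far from the threshold. In batch 1, Cebpa was -0.17 without control replicates 1 and 4 and -0.0168 to 0.60 over single libraries left out. Cebpb was 0.63 with limma-trend, 2.26 with limma-voom and -0.79 to 0.10 over single libraries left out. Ebf1 was 0.12 with limma-trend, 0.11 with limma-voom and -0.38 to 0.27 over single libraries left out. Against the batch 2 controls, Cebpb was -0.10 to 0.35 over single libraries left out, and Ebf1 was 0.0474 without WD replicates 2 and 4. With all controls, Cebpa was 0.31 with a batch term, Cebpb was 0.31 with limma-trend, 1.03 with limma-voom and -0.31 to 0.10 over single libraries left out, and Ebf1 was -0.33 to 0.0105 over these. Between the control groups, Cebpb was 0.57 with limma-trend, 2.19 with limma-voom and -0.85 to 0.0610 over single libraries left out, Cebpd was -0.79 to 0.0431 over these, Ebf1 was -0.20 without control replicates 1 and 4 and -0.13 to 0.55 over single libraries left out, Pparg was -0.0494 with DESeq2, -0.0380 with library totals, -0.00691 with upper-quartile factors and -0.33 to 0.62 over single libraries left out, and Ppargc1a was 0.53 with limma-voom. The causes were not tested.

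The replicate numbers did not pair the samples. With them as a replicate block, edgeR called 0 genes in batch 1 and 594 in place of 773 against the batch 2 controls, where Klf15 was still called. In the block fit Cebpb was 0.51 and Ebf1 was 0.0135 in batch 1, and with all controls, by title number, Cebpa was 0.20 and Cebpb 0.37. Not every library correlated best with its own number.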
